A study of Homo sapiens with 12 samples.

Results

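Glycolysis and hypoxia genes were followed through XRN2 knockdown in 2 human glioblastoma cell lines. The 37 genes came from a named list that was matched to the gene names of the deposited tables, and all 37 of the 58174 genes listed there were found. They fall into 16 genes of the steps from glucose to pyruvate, 5 genes that decide what becomes of pyruvate and lactate, 13 target genes of the hypoxia-inducible factors (HIFs) and 3 genes that encode HIF subunits. LN229 and U251 are established lines, LN229 grown in 5% and U251 in 10% fetal bovine serum and in different media. Cells of each line were mock transfected, transfected with a control siRNA (siNT_OTP) or transfected with an siRNA against XRN2, a nuclear exonuclease that degrades RNA from its 5′ end, and RNA was taken after 72 hours. Each of the 6 groups had 2 libraries, made from total RNA with TruSeq RNA v2 chemistry, which reads polyadenylated RNA without its strand. No oxygen treatment is named in the labels. Whether the 2 libraries of a group came from separate cultures is not stated, so the tests measure the spread between these libraries, which may be technical.

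In glycolysis, glucose is phosphorylated by hexokinase and split by aldolase, and the resulting trioses are oxidised and rearranged to pyruvate. Lactate dehydrogenase turns pyruvate into lactate, which monocarboxylate transporters carry across the cell membrane. Pyruvate dehydrogenase kinase inhibits pyruvate dehydrogenase, the enzyme that uses pyruvate inside the mitochondria. HIF1A and EPAS1 (HIF-2 alpha) are degraded when oxygen is plentiful. When they are stable they pair with ARNT, bind hypoxia response elements with the core ACGTG or GCGTG, and raise glycolytic genes together with genes such as VEGFA and CA9. Glioblastoma is known for high lactate production even where oxygen is present.

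Promoters were read for the genes the results turn on, LDHA, PGAM1 and ADM, which were the genes called lower with XRN2 siRNA in LN229, and for CA9, which separated the lines most. Each is the 250 bases before the RefSeq start site (GRCh38.p14, + strand, 5′ to 3′), with chr11:18394313-18394562 for LDHA, chr10:97427568-97427817 for PGAM1, chr11:10304823-10305072 for ADM and chr9:35673678-35673927 for CA9. Capitals mark the words ACGTG and GCGTG on either strand.
LDHA: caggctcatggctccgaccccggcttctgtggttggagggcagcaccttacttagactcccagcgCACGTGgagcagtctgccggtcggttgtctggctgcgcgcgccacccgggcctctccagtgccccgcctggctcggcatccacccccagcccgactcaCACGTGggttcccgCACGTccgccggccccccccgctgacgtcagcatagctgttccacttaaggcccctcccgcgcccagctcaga
PGAM1: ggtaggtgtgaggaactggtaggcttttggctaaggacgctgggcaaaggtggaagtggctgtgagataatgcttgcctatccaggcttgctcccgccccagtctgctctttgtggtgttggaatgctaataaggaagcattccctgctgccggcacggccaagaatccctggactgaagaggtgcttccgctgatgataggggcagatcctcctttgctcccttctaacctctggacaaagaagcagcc
ADM: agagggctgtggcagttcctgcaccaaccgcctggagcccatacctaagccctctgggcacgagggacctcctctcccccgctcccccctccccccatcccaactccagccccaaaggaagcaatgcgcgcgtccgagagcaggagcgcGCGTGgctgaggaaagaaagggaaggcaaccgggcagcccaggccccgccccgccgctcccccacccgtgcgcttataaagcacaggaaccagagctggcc
CA9: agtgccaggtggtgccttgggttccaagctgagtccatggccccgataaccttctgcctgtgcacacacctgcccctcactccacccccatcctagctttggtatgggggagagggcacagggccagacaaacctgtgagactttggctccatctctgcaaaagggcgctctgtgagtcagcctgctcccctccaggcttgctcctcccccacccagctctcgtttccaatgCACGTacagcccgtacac
LDHA held 5 such words before the start, of which the E-box CACGTG, present in 2 copies, counts once on each strand. ADM and CA9 held 1 each and PGAM1 held 0. In the deposited annotation PGAM1 starts at chr10:97426160 and ADM at chr11:10304680, ahead of their windows. Both windows thus lay inside the annotated gene, and the bases before its first position were not read. Over the whole window of 250 bases before and 50 after the start, 24 of the 33 genes with a RefSeq promoter (72.7%) held ACGTG or GCGTG, beside 48.4% of all 27305 promoters. The GC content of these windows was 67.6% in the 33 genes and 57.2% in all promoters, and its part in that difference was not tested. By role, 12 of 16 promoters of the glucose to pyruvate genes, 2 of 4 of the pyruvate and lactate genes, 8 of 10 of the HIF targets and 2 of 3 of the HIF subunits held a word. SLC16A1, VEGFA, BNIP3L and NDRG1 were not matched. A word in a window is a description and shows no binding.

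The libraries held 4846768 to 7469052 exon reads, so that 3 reads, taken as the limit that a count of 0 allows, correspond to 0.402 to 0.619 counts per 1000000 exon reads (CPM); such limits cover counting error only. CPM values below are scaled with TMM factors (the trimmed mean of M-values, edgeR's normalisation). XRN2 itself was 201.7 to 242.7 CPM in the 4 LN229 control libraries (mock and control siRNA) and 33.5 and 25.6 CPM with XRN2 siRNA, and in U251 134.4 to 144.2 CPM against 31.1 and 26.2 CPM. Of 8 glioma and glial markers, VIM and NES were well expressed in both lines. GFAP was 2351 to 6428 CPM in the U251 controls and 1.41 to 4.32 CPM in the LN229 controls. S100B and OLIG2 went the other way. They were 294.2 to 568.8 and 6.74 to 9.68 CPM in the LN229 controls, and 14.85 to 21.98 and 0 to 0.161 CPM in the U251 controls. The 8 markers summed to 4256 and 3314 CPM with XRN2 siRNA against 4935 to 6440 CPM in the LN229 controls. In U251 their sum was 16850 and 17720 CPM against 9589 to 17590 CPM. Of 14 markers of blood, endothelial, epithelial, neuronal, oligodendrocyte and stromal cells, HBB was 0 in every library, and their summed level was 437.3 and 455.2 CPM with XRN2 siRNA against 332.2 to 467.5 CPM in the LN229 controls, most of it COL1A1. MBP, a myelin gene, was the marker called higher there, at 3.26 and 4.03 CPM against 0.674 to 1.41 CPM in the controls. In U251 the sum was 104.3 and 114.3 CPM against 89.6 to 137.2 CPM.

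A pair of libraries stood apart from the others. LN229 control siRNA replicate 1 had 5.58% intron reads among its gene reads, against 8.76% to 9.55% in the other LN229 libraries, and its difference from replicate 2 followed transcript length over 14232 genes (Spearman rho -0.49, across genes that are not independent). This library was the highest of the 6 LN229 libraries for 12 of the 21 glycolytic and lactate genes (30.2% of all genes tested), and for the HIF targets in 1 of 13, ADM. It was the lowest for 7 of the 37 genes (29.8% of all genes), among them HIF1A, EPAS1 and ARNT. U251 mock replicate 2 had a summed level of 12 unfolded protein and ATF4 response genes of 23670 CPM, against 1947 to 2077 CPM in the other U251 libraries. It was the lowest of the 6 U251 libraries for 30 of the 37 genes (32.3% of all genes) and the highest for 4, SLC16A1, VEGFA, HIF1A and EPAS1 (25.5% of all genes).

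**Figure D1:**
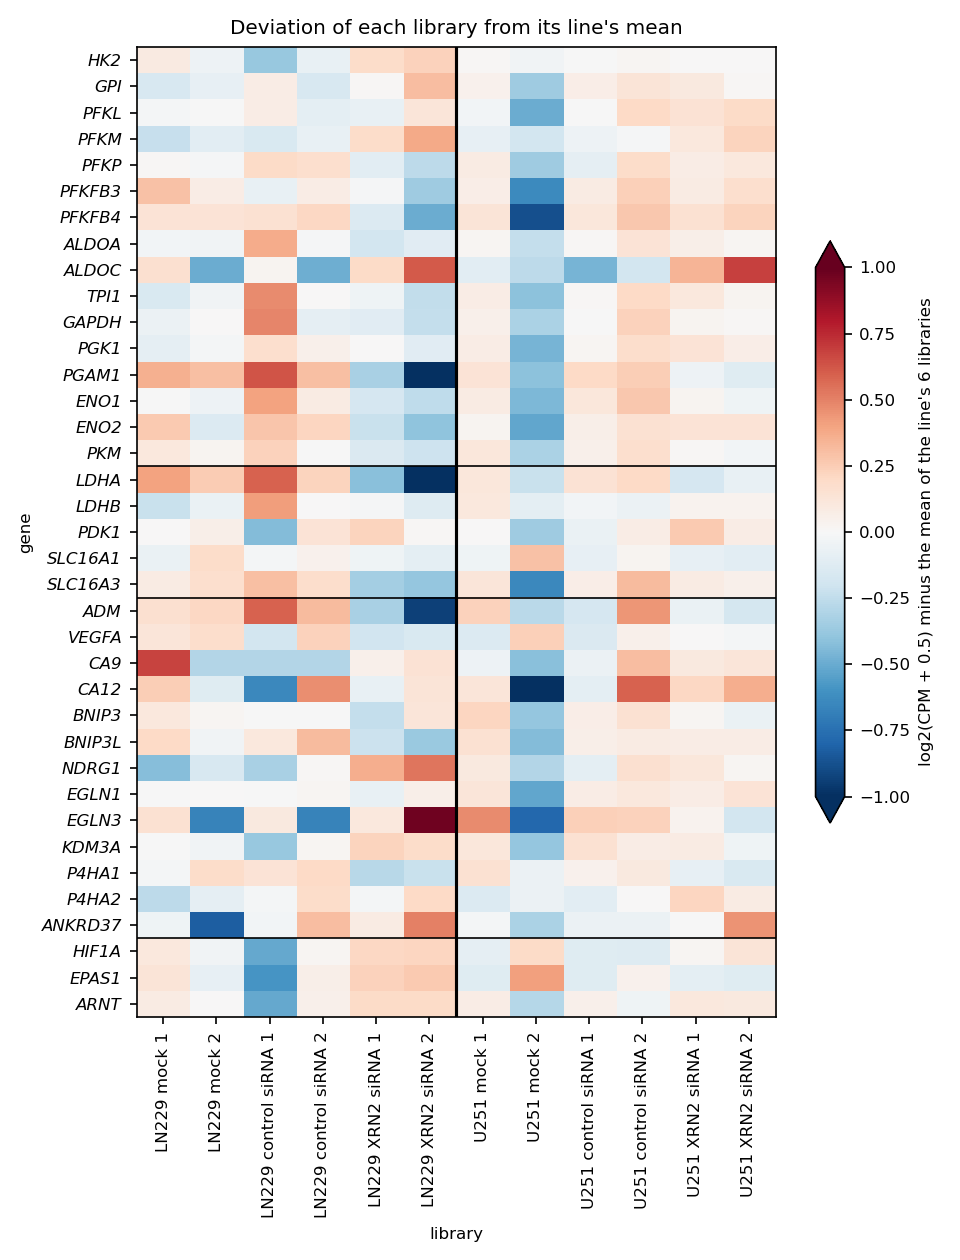
Each cell is the level of 1 of the 37 genes (rows) in 1 of the 12 libraries (columns), as log2(CPM + 0.5) minus the mean of the line's 6 libraries, with red above and blue below that mean and colours ending at 1 either way. LN229 control siRNA replicate 1 is red in most glycolytic rows and blue at the HIF subunits, U251 mock replicate 2 is blue in most rows, and LDHA, PGAM1 and ADM are bluest in LN229 XRN2 siRNA replicate 2.

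In LN229, XRN2 siRNA lowered LDHA, PGAM1 and ADM against the control siRNA, and no gene of the 37 was called higher (edgeR quasi-likelihood F-test, Benjamini-Hochberg adjusted p under 0.05). Over all 14232 genes tested, all 37 among them, 1.95% were called lower and 1.21% higher. Against mock, LDHA alone was called lower, beside 0.738% of all genes lower and 0.548% higher, and again none of the 37 was called higher. DESeq2 added NDRG1 as higher in the first comparison, and NDRG1 and PFKM as higher and PGAM1 as lower in the second. DESeq2 called more of the genes it tested, 2.5% higher and 4.5% lower in the first comparison and 1.29% and 2.27% in the second. Both comparisons use the same XRN2 siRNA libraries, so they are not independent of each other.

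LDHA encodes the muscle-type subunit of lactate dehydrogenase, which favours lactate formation. Its level was 993 and 899.6 CPM in LN229 mock, 1134 and 880.0 CPM with control siRNA, and 562.7 and 363.5 CPM with XRN2 siRNA. Both XRN2 siRNA libraries were below all 4 controls, and the pair differed from each other by more than the mock libraries did. The fitted log2 fold change was -1.12 (SE 0.20, edgeR adjusted p = 0.0168) against control siRNA and -1.03 (SE 0.20, edgeR adjusted p = 0.0293) against mock. In U251, where LDHA was 16.3 to 22.0 CPM in all 6 libraries, XRN2 siRNA gave a log2 fold change of -0.30 relative to control siRNA (SE 0.23, edgeR adjusted p = 1.0).

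PGAM1 encodes the phosphoglycerate mutase that moves the phosphate group between carbons late in glycolysis. It was 349.8 and 336.3 CPM in LN229 mock, 422.6 and 336.8 CPM with control siRNA, and 218.7 and 114.5 CPM with XRN2 siRNA, again with no overlap between the XRN2 siRNA libraries and the 4 controls. The log2 fold change was -1.19 (SE 0.26, edgeR adjusted p = 0.032) against control siRNA and -1.04 (SE 0.26, edgeR adjusted p = 0.0654) against mock. Between 33.8% and 39.3% of its exon reads mapped uniquely, and how reads with several matches were assigned is not given in the sources used here, so its level is uncertain. Uniquely mapped reads alone gave a log2 fold change of -1.26 relative to control siRNA (edgeR adjusted p = 0.0192). In U251, PGAM1 was 1048 and 1001 CPM with XRN2 siRNA, against 1249 and 1291 CPM with control siRNA and 1195 and 819 CPM in mock, so that the XRN2 siRNA libraries lay below control siRNA and between the mock libraries.

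ADM encodes adrenomedullin, a secreted vasodilator peptide and HIF target. It was 26.4 and 27.3 CPM in LN229 mock, 35.7 and 29.5 CPM with control siRNA, and 18.7 and 12.1 CPM with XRN2 siRNA. The log2 fold change was -1.06 (SE 0.25, edgeR adjusted p = 0.0397) against control siRNA and -0.79 (SE 0.25, edgeR adjusted p = 0.135) against mock. The U251 libraries, at 14.0 to 23.2 CPM, overlapped between the groups.

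**Figure D2:**
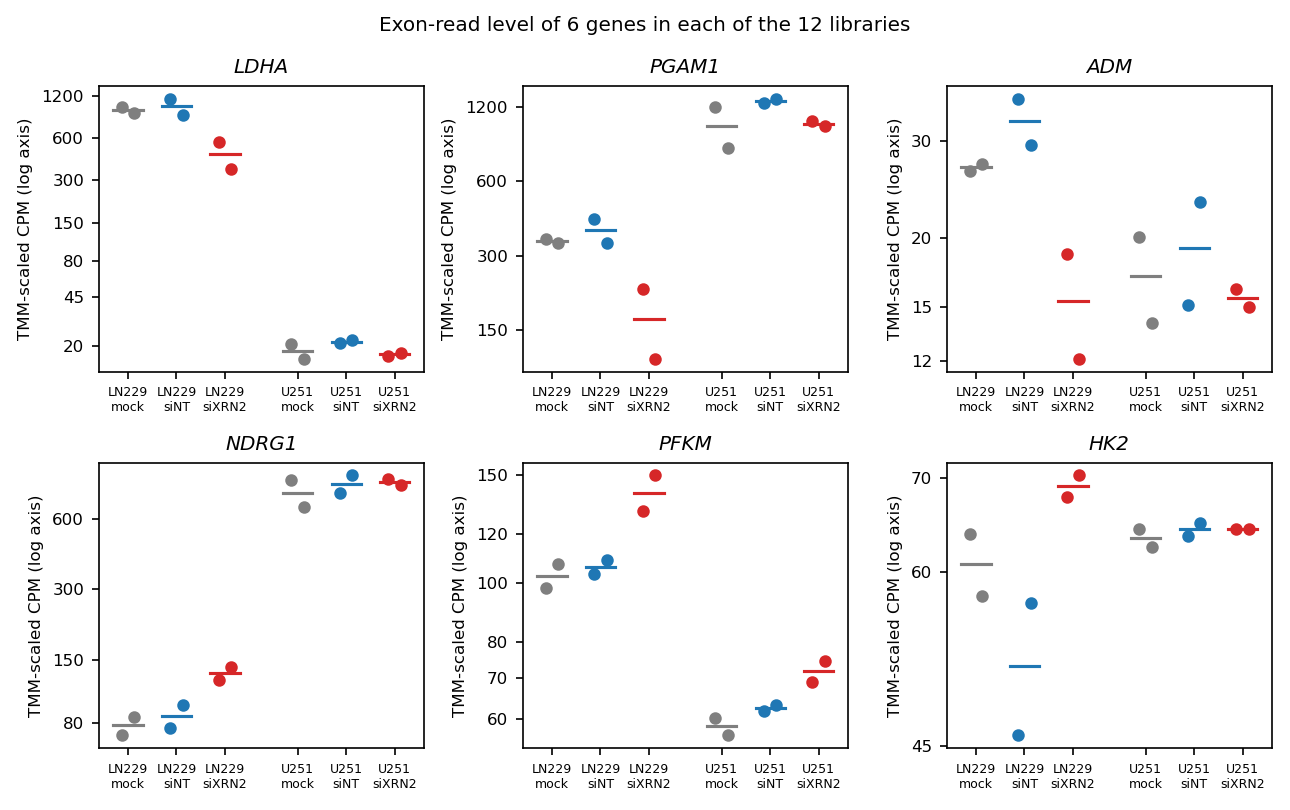
TMM-scaled CPM (log axes that differ between panels) of the 6 genes of the 37 with the smallest edgeR p for LN229 XRN2 siRNA against control siRNA, with 1 point per library and a bar at the mean of the 2 libraries of each group. In LN229, LDHA, PGAM1 and ADM lie below all 4 control libraries with XRN2 siRNA (siXRN2), and NDRG1, PFKM and HK2 above them.

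The 3 calls against control siRNA were not kept when either of a pair of libraries in that comparison was left out. Leaving out 1 library leaves its group with 1, which is then assumed to vary as the other groups do. Without LN229 control siRNA replicate 1, the log2 fold changes were -0.90 for LDHA (edgeR adjusted p = 0.0774), -0.98 for PGAM1 (edgeR adjusted p = 0.212) and -0.89 for ADM (edgeR adjusted p = 0.166). Without LN229 XRN2 siRNA replicate 2, they were -0.84, -0.79 and -0.79, with edgeR adjusted p = 0.212, 0.314 and 0.422. Calls over all genes also moved with the library that was left out, so a call lost in such a fit is not particular to these genes. PGAM1 and ADM, but not LDHA, also lost the call without 1 of the LN229 mock libraries or of the U251 control siRNA or XRN2 siRNA libraries, with edgeR adjusted p of 0.0553 to 0.0747 and log2 fold changes that stayed at -1.19 and -1.07. Fitted on the LN229 libraries alone, none of the 3 passed, with log2 fold changes of -1.10, -1.17 and -1.04 and edgeR adjusted p = 0.109, 0.118 and 0.113. That fit called 0.00749% of all genes. The LDHA call against mock was lost without LN229 mock replicate 1 (log2 fold change -0.96), mock replicate 2 (-1.10) or XRN2 siRNA replicate 2 (-0.75). In the LN229 libraries alone, where 0.00749% of all genes were called, it was lost too (-1.01, edgeR adjusted p = 0.149). It was also lost without any 1 of the U251 control siRNA or XRN2 siRNA libraries (edgeR adjusted p of 0.0658 to 0.0685), which are not in the comparison and left the log2 fold change at -1.03.

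Most fold changes in LN229 were below the threshold. The median log2 fold change against control siRNA was -0.30 over the 21 glycolytic and lactate genes, with 15 of 21 below 0, beside 0.00 over all genes, of which 50.07% were below 0. Without control siRNA replicate 1, the first median was -0.10, and against mock it was -0.13, with 13 of 21 below 0. Of the 13 HIF targets, CA9, CA12 and EGLN3 had 3, 16 and 21 reads in the 4 LN229 controls together, and no change could be read for them in that line. The other 10 had a median of -0.03, with 6 of 10 below 0, close to that of all genes. With no TMM factors their median was 0.07 and that of all genes 0.08, so the sign followed the scaling and carries no direction. The 3 HIF subunits were above 0 under the 3 scalings, with a median of 0.43 against control siRNA, 0.21 without control siRNA replicate 1 and 0.17 against mock, and none passed the test.

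Without any fit, both XRN2 siRNA libraries of LN229 lay below all 4 controls for 13 of the 37 genes, beside 16.9% of all genes tested, and above all 4 for 8, beside 16.0% of all genes. The 13 were PFKP, PFKFB4, ALDOA, GAPDH, PGAM1, ENO1, ENO2, PKM, LDHA and SLC16A3, which are 10 of the 21 glycolytic and lactate genes, and the HIF targets ADM, BNIP3L and P4HA1. The 8 were HK2, PFKM and ALDOC, the HIF targets NDRG1 and KDM3A, and HIF1A, EPAS1 and ARNT. With control siRNA replicate 1 set aside, an alternative chosen after seeing the data, the counts were 15 of 37 below (25.0% of all genes) and 9 of 37 above (22.0% of all genes). The lower genes PKM and ENO1, which encode pyruvate kinase and enolase and are among the most abundant of the 37, were 3417 and 3272 CPM against 3778 to 4431 CPM, and 1335 and 1262 CPM against 1450 to 1989 CPM. SLC16A3, the lactate exporter MCT4, was 29.9 and 28.9 CPM against 40.2 to 46.8 CPM, with a log2 fold change of -0.61 (SE 0.22, edgeR adjusted p = 0.134) against control siRNA.

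NDRG1, a stress- and hypoxia-responsive gene, had the smallest p of the genes above 0. It was 71.0 and 85.5 CPM in LN229 mock, 76.2 and 96.2 CPM with control siRNA, and 123.2 and 139.0 CPM with XRN2 siRNA, which did not overlap the controls. Its log2 fold change was 0.60 (SE 0.18, edgeR adjusted p = 0.0806) against control siRNA and 0.74 (SE 0.18, edgeR adjusted p = 0.0603) against mock. PFKM, the muscle isoform of phosphofructokinase, was 97.9 to 109.0 CPM in the 4 controls and 130.9 and 149.7 CPM with XRN2 siRNA, with log2 fold changes of 0.40 (SE 0.13, edgeR adjusted p = 0.10) and 0.45 (SE 0.13, edgeR adjusted p = 0.102). With the mock and control siRNA libraries pooled as 1 control, 5 genes were called, PFKM and NDRG1 as higher and LDHA, PGAM1 and ADM as lower, beside 2.44% of all genes higher and 3.68% lower.

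Intron reads, which can come from RNA not yet spliced and were not used for the CPM values, were few. Other sources of such reads were not told apart. LDHA had 25 and 43 intron reads in LN229 mock, 10 and 14 with control siRNA and 19 and 14 with XRN2 siRNA, and PGAM1 had 16 and 18, 9 and 12, and 21 and 14 in the same order. Scaled to the exon and intron reads of the library (reads per 1000000), LDHA was 4.53 ± 0.99 in mock, 2.10 ± 0.22 with control siRNA and 2.53 ± 0.035 with XRN2 siRNA (SD, n = 2 in each). The PGAM1 values were 2.32 ± 0.19, 1.84 ± 0.13 and 2.67 ± 0.23. For LDHA the intron reads with XRN2 siRNA were thus below both mock libraries and above both control siRNA libraries, and for PGAM1 above both groups, at counts too low for a test. The 5.58% intron share of control siRNA replicate 1, given above, enters the control siRNA values, and its part in them was not tested. NDRG1 had 29 and 29 intron reads in mock, 8 and 18 with control siRNA and 51 and 52 with XRN2 siRNA, where its exon level was also highest. For LDHA and PGAM1 the highest intron level was not in the libraries with the highest exon level.

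**Figure D3:**
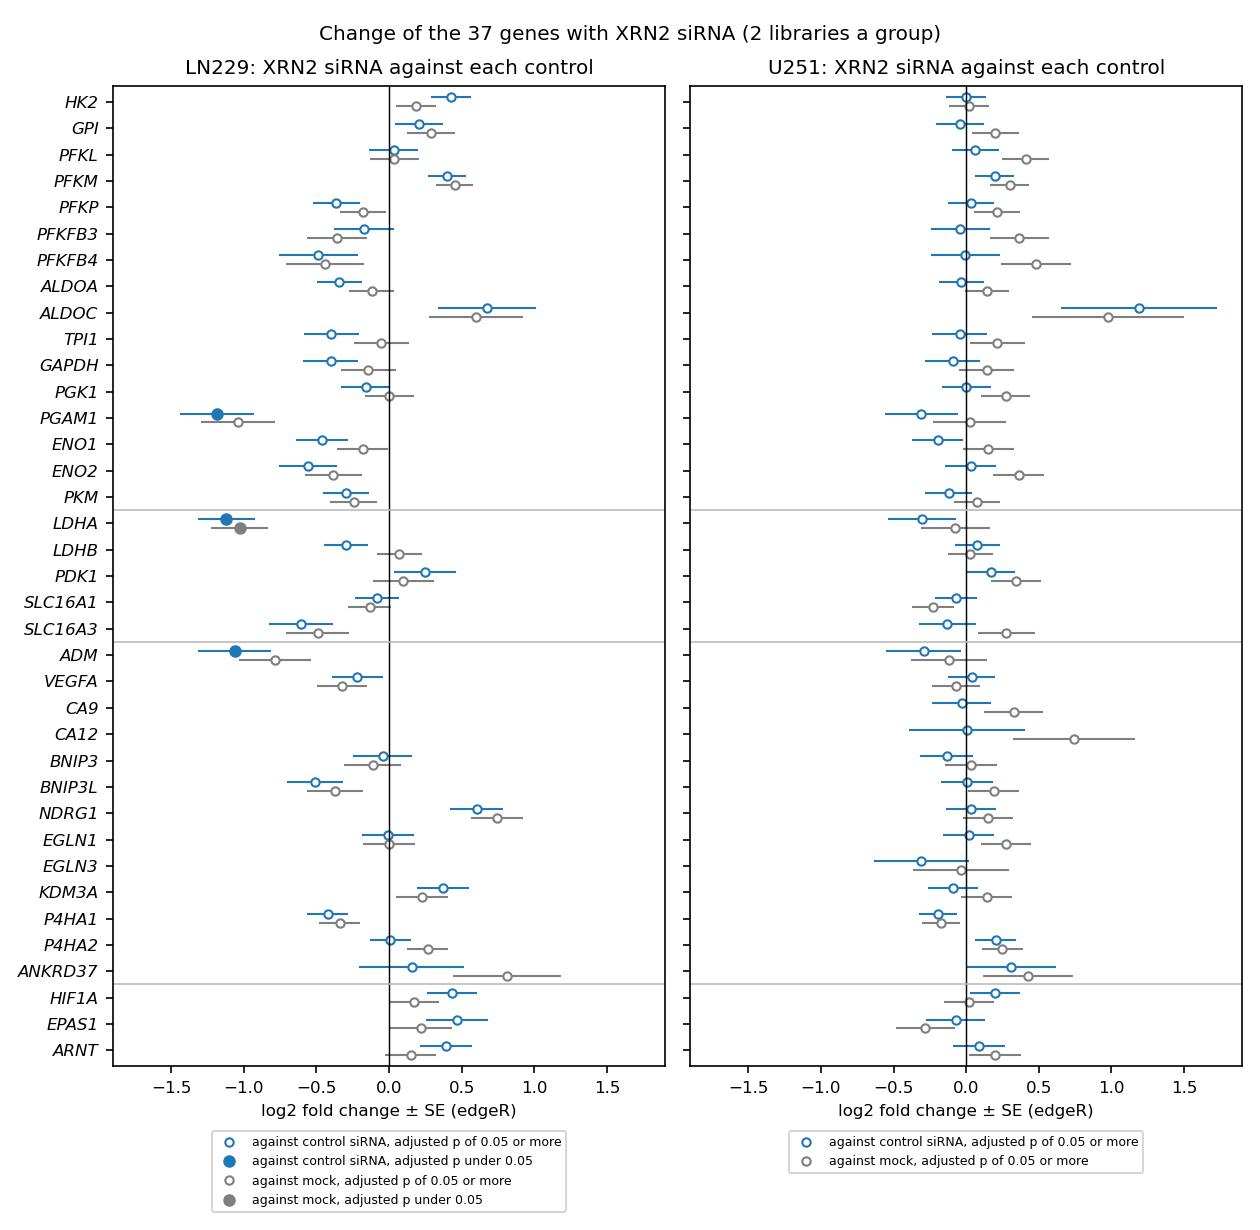
Log2 fold change with its SE (bars) of the 37 genes for XRN2 siRNA against control siRNA (blue) and against mock (grey) in LN229 (left) and U251 (right), filled where the edgeR adjusted p was under 0.05, with grey lines between the roles and CA9, CA12 and EGLN3 left out in LN229 for want of reads. The filled points are LDHA, PGAM1 and ADM in LN229.

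In U251, none of the 37 genes was called with XRN2 siRNA. Against control siRNA, edgeR and DESeq2 called 0 of 37, with 1 at an unadjusted p under 0.05 (3.89% of all genes), and of all genes 0.00703% were called, XRN2 itself. Against mock both tools called 0 of 37, with 2 at an unadjusted p under 0.05 (10.7% of all genes), beside 0.0492% of all genes called. The medians over the 21 glycolytic and lactate genes and the 13 HIF targets were -0.03 and 0.01 against control siRNA. Against mock they were 0.21 and 0.15, with 30 of 37 genes above 0, but without U251 mock replicate 2 the median over the 37 genes was 0.01, with 19 above 0. Without U251 mock replicate 1 in its place, which leaves the library that stood apart as the sole mock, 5 genes were called higher against mock, PFKL, PFKFB3, PFKFB4, SLC16A3 and EGLN1, beside 2.07% of all genes higher and 3.16% lower.

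The U251 XRN2 siRNA libraries lay above all 4 controls for PFKM, ALDOC, P4HA2, ANKRD37 and ARNT, 5 of 37 beside 13.8% of all genes, and below for SLC16A1 and P4HA1, 2 of 37 beside 10.6% of all genes. With mock replicate 2 set aside, 6 of 37 lay above (17.7% of all genes) and 8 of 37 below (16.5% of all genes), and the 8 included PGAM1, ENO1, PKM and LDHA. PFKM, ALDOC and ARNT were above all 4 controls in both lines, 3 of 37 beside 4.52% of all genes. In U251 ALDOC rested on 10 and 12 exon reads against 4 or 5 in each control. ARNT was at 48.9 and 48.6 CPM there, against at most 48.0 CPM in the controls. PFKM was at 68.9 and 74.4 CPM against 56.3 to 63.2 CPM in U251, where it did not pass the test (log2 fold change 0.20, SE 0.13, edgeR adjusted p = 1.0, against control siRNA). P4HA1, a subunit of collagen prolyl 4-hydroxylase, was the 1 gene of 37 below all 4 controls in both lines (4.38% of all genes), at 50.2 and 52.4 CPM against 60.3 to 70.1 CPM in LN229 and 351.7 and 334.8 CPM against 358.7 to 415.3 CPM in U251. It passed the test in neither line.

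The test of the difference between the lines called none of the 37 genes in edgeR or DESeq2, nor any gene in edgeR (0.0% of all genes), and 5 of the 37 had an unadjusted p under 0.05 (6.64% of all genes). For LDHA the change relative to control siRNA differed, LN229 minus U251, by -0.82 on the log2 scale (SE 0.31, edgeR adjusted p = 0.731), and for PGAM1 of -0.88 (SE 0.36, edgeR adjusted p = 0.732). A change in LN229 alone is therefore not shown. Control siRNA against mock called none of the 37 genes in either line with edgeR or DESeq2 (0.0% of all genes in LN229 and 0.0% in U251 with edgeR), with 1 gene at an unadjusted p under 0.05 in LN229 (4.55% of all genes) and 0 in U251 (4.79%). Without LN229 control siRNA replicate 2, GAPDH, LDHB, HIF1A and ARNT were called there, 4 of 37 beside 13.0% of all genes. Without U251 mock replicate 1, PFKFB3, PFKFB4, SLC16A3 and EGLN1 were called in U251, 4 of 37 beside 3.24% of all genes.

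Isoenzyme make-up was read from shares of reads per kilobase within a family, which do not depend on the scaling between libraries. LDHA made up 51.0%, 45.9%, 43.3% and 44.1% of the LDHA, LDHB and LDHC total in the LN229 controls (46.1% ± 3.5, SD, n = 4) and 33.8% and 26.3% with XRN2 siRNA (30.1% ± 5.3, SD, n = 2). LDHB, the heart-type subunit, took nearly all of the rest. In the U251 controls LDHA made up 2.34% to 3.05%. The exon length behind these shares sums the exons of all annotated transcripts, so shares compare libraries better than they compare genes.

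Among the phosphofructokinases of LN229, PFKM went from 25.1% to 28.2% in the controls to 33.8% and 37.8% with XRN2 siRNA, and PFKP, the platelet isoform, from 53.4% to 56.9% to 49.1% and 43.0%. The SLC16A3 share of the lactate transporters SLC16A1 and SLC16A3 was 29.7% to 35.0% in the LN229 controls and 25.8% and 25.9% with XRN2 siRNA, and in U251 it was 38.4% in mock replicate 2 against 56.9% to 59.2% in the other controls. P4HA1 made up 58.0% to 62.3% of the P4HA1 and P4HA2 total in the LN229 controls and 53.2% and 50.5% with XRN2 siRNA. In U251 the P4HA1 share was 87.4% to 89.5% and 84.9% and 85.5%. These ranges did not overlap between XRN2 siRNA and controls, except that of the lactate transporters in U251, and they were not tested.

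**Figure D4:**
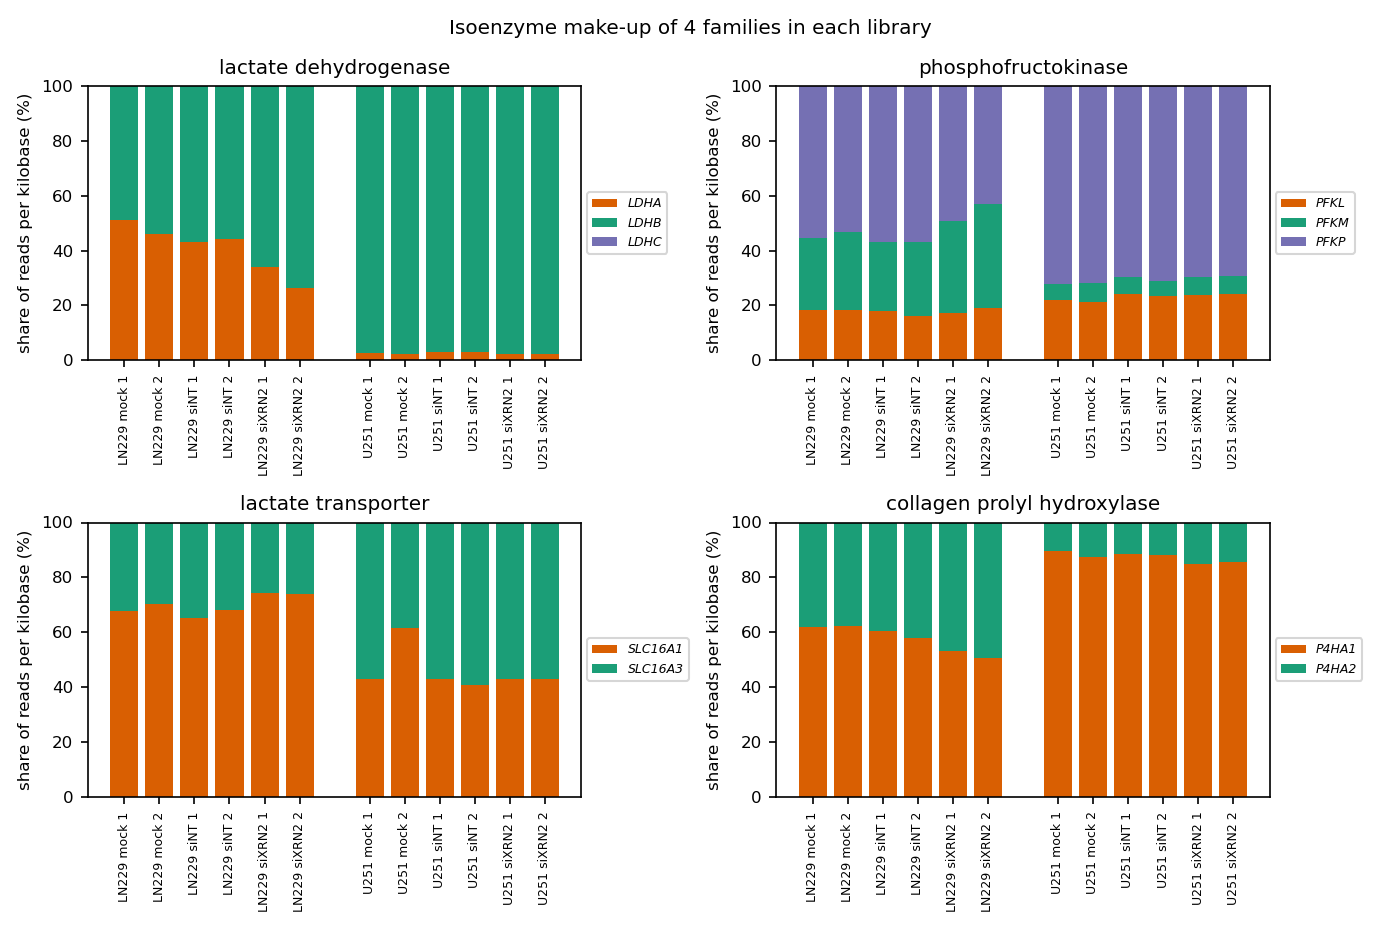
Stacked bars give the share (%) of reads per kilobase that each isoenzyme took in its family, for each of the 12 libraries (replicates 1 and 2 of mock, control siRNA, siNT, and XRN2 siRNA, siXRN2, in both lines). The LDHA share of LN229 is 43.3% to 51.0% in the controls and 33.8% and 26.3% with XRN2 siRNA, and it is at most 3.05% in U251.

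Other genes of the same pathways stayed below the threshold with XRN2 siRNA in LN229, apart from TKT, the transketolase of the pentose phosphate pathway. TKT was 879.2 and 971.5 CPM in mock, 1105 and 1096 CPM with control siRNA and 1366 and 2006 CPM with XRN2 siRNA. Its log2 fold change was 0.86 (SE 0.18, edgeR adjusted p = 0.0377) against mock and 0.61 (SE 0.18, edgeR adjusted p = 0.0752) against control siRNA. The TKT call was lost without LN229 XRN2 siRNA replicate 2 (log2 fold change 0.56), mock replicate 1 (0.79) or mock replicate 2 (0.93). In the LN229 libraries alone, where 0.00749% of all genes were called, it was lost too (0.88, edgeR adjusted p = 0.151). Without any 1 of the U251 control siRNA or XRN2 siRNA libraries it was lost (edgeR adjusted p of 0.0754 to 0.0771) with the log2 fold change still at 0.86. Against control siRNA, 0 of 9 other glycolysis genes, 0 of 5 glucose uptake genes, 0 of 13 genes of pyruvate import and dehydrogenase, 0 of 7 pentose phosphate genes, 0 of 25 other HIF targets and 0 of 8 other oxygen sensing genes passed in edgeR, with 1, 1, 2, 1, 8 and 4 at an unadjusted p under 0.05, beside 22.2% of all genes. Of 8 mitosis markers, CCNB1, CDC20, PLK1 and CDK1 were called lower, and their summed level was 1531 and 1037 CPM with XRN2 siRNA against 1795 to 2299 CPM in the LN229 controls. That mitosis level was lowest in XRN2 siRNA replicate 2, as were LDHA, PGAM1 and ADM. Among the LN229 controls the order of the sums differed. Control siRNA replicate 1 had the lowest mitosis sum (1795 CPM) and the highest LDHA, PGAM1 and ADM (1134, 422.6 and 35.7 CPM). The markers did not move together in that library. MKI67, TOP2A and BUB1 were the lowest of the LN229 controls (339.9, 378.0 and 87.3 CPM). CCNB1, CDC20, PLK1 and AURKA were the highest (294.1, 231.6, 157.9 and 170.3 CPM), and CDK1 lay between. The sum alone thus gives no order of mitosis level among these controls. In U251, all 8 mitosis markers were below 0 against control siRNA (median log2 fold change -0.39), and none was called. The part of the mitosis level in the change of LDHA, PGAM1 and ADM was not tested. In bulk RNA, fewer cells of a kind and less RNA per cell cannot be told apart.

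Far more of the 37 genes were called between the lines than between treatments. Between the 4 LN229 and the 4 U251 controls, 33 of the 37 genes were called by edgeR, 5 higher in LN229 (34.9% of all genes) and 28 lower (32.1% of all genes), and none changed sign under any alternative. HK2, GAPDH, P4HA2 and ARNT were not called. The median log2 difference, LN229 against U251, was -1.65 over the 21 glycolytic and lactate genes, -2.54 over the 13 HIF targets and 0.03 over all genes. With no TMM factors all genes shifted to a median of 0.20, the HIF targets to -2.38, and the calls over all genes went from 4970 higher and 4563 lower to 6028 and 3733. Line, medium and serum cannot be told apart here.

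HIF targets were nearly all higher in U251. CA9, a cell-surface carbonic anhydrase, was 294.3 to 485.6 CPM in the U251 controls, whereas the 4 LN229 controls held 3 reads together, all in mock replicate 1, against 8931 in U251, a ratio of 3186 (95% interval 1090 to 15450, counting error only). VEGFA, an angiogenic growth factor, was 716.1 to 934.3 CPM in U251 and 55.9 to 74.8 CPM in LN229. BNIP3, a mitophagy receptor, was 432.3 to 655.7 CPM and 37.1 to 40.2 CPM, and NDRG1 677.8 to 924.7 CPM and 71.0 to 96.2 CPM. EGLN3, a HIF prolyl hydroxylase, had 1008 reads in the U251 and 21 in the LN229 controls, a ratio of 51.4 (95% interval 33.4 to 83.4). ADM was the exception, higher in LN229 by 0.71 on the log2 scale (SE 0.18, edgeR adjusted p = 0.00283). Of the subunits, HIF1A was 726.7 to 907 CPM in U251 and 375.4 to 576.2 CPM in LN229, with a log2 difference, LN229 against U251, of -0.63 (SE 0.12, edgeR adjusted p = 0.000499), and EPAS1 of -1.74 (SE 0.15, edgeR adjusted p = 3.44e-07). Of HIF1A reads, 42.3% to 59.8% mapped uniquely.

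Most enzymes were also higher in U251, with PGK1 (phosphoglycerate kinase) at 1897 to 2946 CPM against 373.8 to 446.4 CPM in LN229, and SLC16A3 at 299.1 to 581.6 CPM against 40.2 to 46.8 CPM. LDHA went the other way, with a log2 difference of 5.61 (SE 0.17, edgeR adjusted p = 2.48e-11), at 880.0 to 1134 CPM in LN229 and 16.3 to 22.0 CPM in U251. LDHB differed less, by 0.67 (SE 0.11, edgeR adjusted p = 0.000123). The other genes higher in LN229 were PFKM by 0.79 (SE 0.09, edgeR adjusted p = 7.19e-06) and ALDOC, the brain aldolase, by 2.68 (SE 0.32, edgeR adjusted p = 7.96e-06), of which 40.0% to 76.9% of reads mapped uniquely. Per length, as TPM (exon reads per kilobase, scaled to a sum of 1000000 per library), GAPDH was first among the 37 in the controls of both lines, at 7765 ± 927 in LN229 and 6238 ± 864 in U251 (SD, n = 4), and its CPM ranges in the 2 lines overlapped. LDHA was sixth in LN229 at 637 ± 39.8, next to LDHB at 749 ± 91.2, and 34th in U251 at 11.9 ± 1.40.

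**Figure D5:**
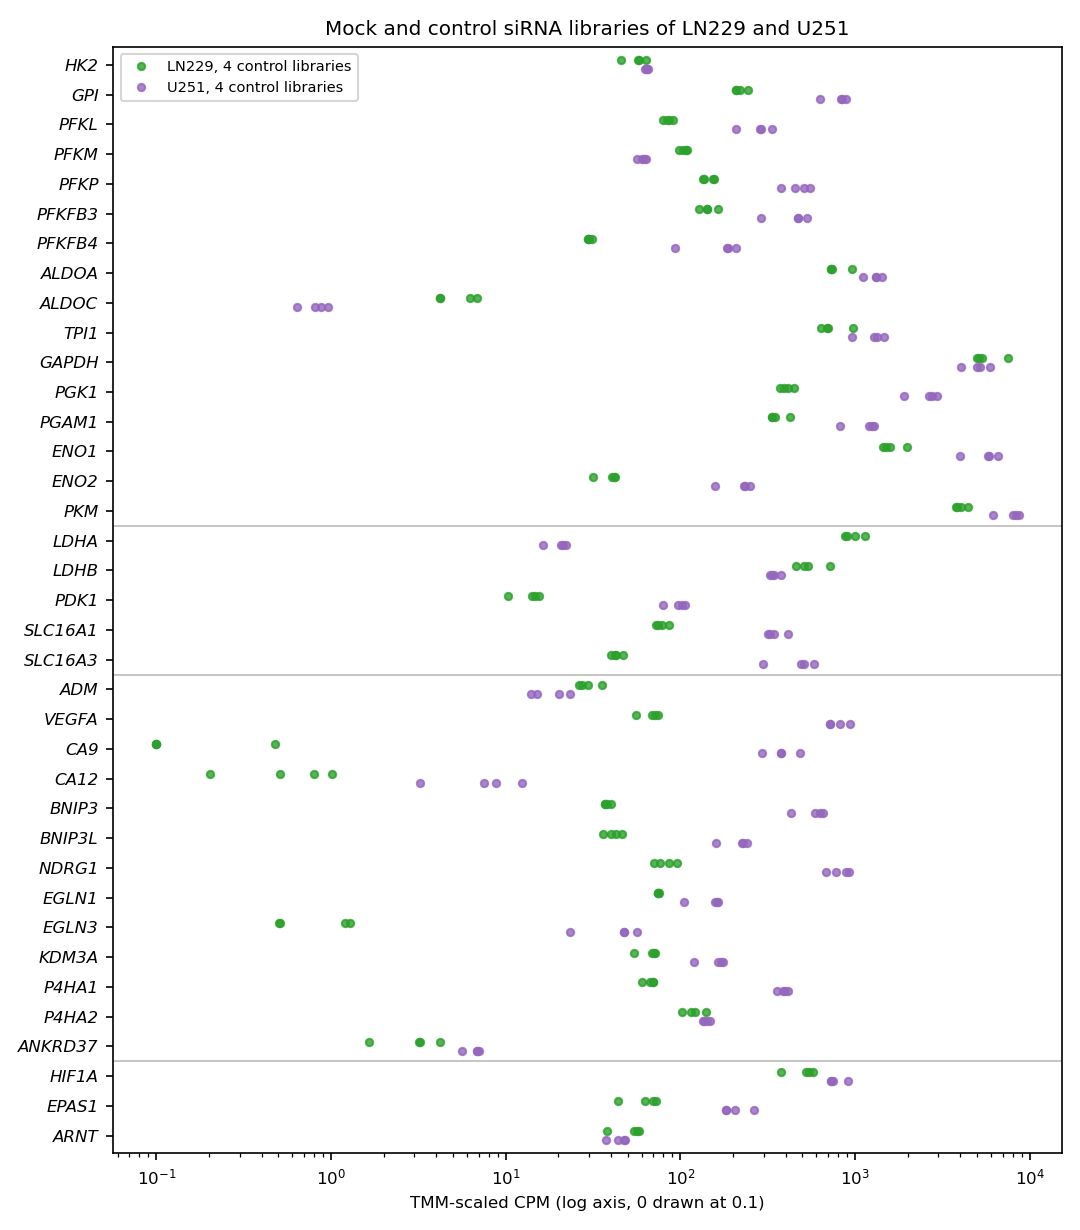
TMM-scaled CPM (log axis, values of 0 drawn at 0.1) of the 37 genes in the 4 control libraries (mock and control siRNA) of LN229 (green) and of U251 (purple), with grey lines between the roles. CA9, EGLN3, VEGFA and BNIP3 lie far to the right in U251, LDHA lies far to the right in LN229, and GAPDH overlaps.

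Pathway genes outside the 37 gave values on both sides, and their counts stand beside 34.9% of all genes called higher and 32.1% lower. Of the 25 other HIF targets, 19 were called lower and 4 higher in LN229 than in U251 (median log2 difference -1.52), with TMEM45A, PLOD1 (a collagen lysyl hydroxylase) and AK4 (an adenylate kinase) at -4.04, -2.04 and -3.22. The higher ones with the smallest p were MIF, a cytokine, at 252.7 to 425 CPM in the LN229 and 0.191 to 0.955 CPM in the U251 controls, JMJD6 at 0.38, and ANGPTL4, which was at most 2.22 CPM in any library. Of the 5 glucose uptake genes 4 were called lower in LN229, among them SLC2A1 (the transporter GLUT1) at -1.54, SLC2A12 at -6.70 and ARRDC4 at -4.50. Of 13 genes of pyruvate import and dehydrogenase, 7 were called lower, with PDHA1 at -1.66, DLAT at -1.74 and PDK3 at -2.65, and 1 higher, PDK4 at 1.95. Of 9 other glycolysis genes 4 were lower, with HK1 (the ubiquitous hexokinase) at -1.35, BPGM at -0.83 and ADPGK at -0.60, and 3 higher, TIGAR at 2.16, PFKFB2 at 1.33 and ENO3 at 1.58. The pentose phosphate genes were called in 2 of 7, RPIA at 0.51 and TKT at -0.46, and the oxygen sensing genes in 4 of 8, RBX1 at 0.79, HIF1AN at -0.51, EGLN2 at -0.44 and ELOC at -0.40. EGLN2 made up 45.6% of the EGLN1, EGLN2 and EGLN3 reads per kilobase in the LN229 controls and 31.7% in the U251 controls. With uniquely mapped reads alone these shares were 4.73% and 2.39%, so the EGLN2 level is uncertain.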

How the data were processed

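Poly(A)-selected RNA of 12 libraries was analysed, 2 in each of 6 groups that were read from the sample titles. The deposited files hold raw read counts per gene (total and unique, in exons and in introns), per the file headers. No source used here gives the aligner or counter. The submitters' processing notes name GRCh37 (hg19), but 56006 of 57836 shared gene identifiers (96.8%) have their GENCODE 29 (GRCh38) position in the files. Total exon counts were filtered (filterByExpr, minimum count 10, minimum total 15; 14232 genes), scaled by TMM and tested with edgeR 4.0.16 in R 4.3.3 (quasi-likelihood F-test, 1 mean per group over all 12 libraries, 6 residual degrees of freedom, Benjamini-Hochberg over all genes at 0.05). SE is the log2 fold change divided by the root of F. Replicates were compared before averaging: the chi-square per gene was 1.73 to 27.2, above sampling noise in every pair. DESeq2 1.42.0, other scalings, no filter, unique reads, a block and each library left out were alternatives. The script was tested on simulated data.

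The 37 genes and all lists were chosen with earlier results of these data known. All 37 were named, with XRN2, list genes past the threshold with XRN2 siRNA, and the 3 higher and 3 lower pathway genes with the smallest p between lines.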

Additional observations from a re-analysis of the deposited data

How the results depend on the processing

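Of the genes called in the main analysis, no fold change reversed under any alternative; 661 of the recomputed values stayed on their side of the threshold or near their first value, 37 lost the call, and 1 count, of U251 genes below the controls, moved from 2 to 8 without mock replicate 2. Counts of the 37 genes called moved as follows. For LN229 XRN2 siRNA against control siRNA (3 genes), there were 7 with no filter on low counts, 0 in the libraries of the line alone, 5 with mock and control siRNA together as the control, and 0 to 15 with 1 library left out. In that comparison the main analysis called 3.16% of all genes. The share was 6.60% with no filter, 0.00749% in the line alone and 6.12% with the pooled control. Calls over all genes also moved with the library left out, so the movement of these counts is not particular to the 37 genes. Against mock, the main analysis called 1 gene. There were 4 with no filter (4.37% of all genes), 4 with DESeq2 (3.555%) and 2 with no TMM factors (1.53%). Unique exon reads gave 2 (1.77%), the line alone gave 0 (0.00749%), and 1 library left out gave fewer or more. Of the comparisons with 0 calls, the difference between lines had 1 (PGAM1) with no filter, beside 0.613% of all genes. With 1 library left out, some of the 37 were called in 4 such comparisons. These were control siRNA against mock in LN229 and in U251, U251 XRN2 siRNA against mock, and the difference between lines. Such fits leave 1 library in a group. With no TMM factors, LN229 XRN2 siRNA against control siRNA gave 277 higher and 197 lower calls over all genes, where TMM gave 172 and 278, and against mock 126 and 92, where TMM gave 78 and 105; the cause was not tested. LN229 against U251 ranged from 33 to 36 of the 37 genes. Of all genes, 67.0% were called in the main analysis, 43.9% with no filter and 68.6% with no TMM factors. Promoters with a HIF core word were 66.7% of the 33 when only the 250 bases before the start were read.

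The replicate numbers did not pair the libraries: same-numbered libraries correlated by -0.038 to 0.066 in their deviations from the group means, in 6 pairs of groups. With the replicate number as a block, 2 of the 37 genes (LDHA and PGAM1) were called for LN229 XRN2 siRNA against mock, beside 1.51% of all genes. Against control siRNA 3 were called, beside 4.03% of all genes. At 4846768 to 7469052 exon reads per library, no change was readable for CA9, CA12 and EGLN3 at their level in LN229.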
